A study of Mus musculus with 20 samples.

Results

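The genes described here code for the proteins of the cytosolic ribosome in mouse heart, with Rpl3l, the heart and skeletal muscle paralog of Rpl3, among them. They were chosen by name: every protein-coding gene whose symbol begins with Rpl or Rps and a digit, together with Rplp0, Rplp1, Rplp2 and Rpsa, and without names that end in -ps or contain -rs and without the Rps6k kinases. The rule gave 86 genes of 52369 with a transcript level, 52 named for the large subunit and 34 for the small subunit; 16 symbols were left out by name. Of the 86 genes, 77 are the usual form of their protein and 8 are paralogs or a retrogene (Rpl10l, Rpl22l1, Rpl36al, Rpl39l, Rpl3l, Rpl7l1, Rps27l and Rps27rt). The remaining gene, Rps19bp1, codes for a protein that binds Rps19 and is not itself part of the ribosome. No measured value entered the choice.

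The samples were poly(A) RNA of mouse heart, read in 16 short-read libraries that fell into 4 groups of 4. In the MI group, tissue was taken 72 h after surgery for myocardial infarction, from the infarct core and the region around it, and the MISham group was its sham operation, sampled in the same region. The IR group had ischemia-reperfusion, with 40 min of a procedure that the labels shorten to LCA and then 72 h of reperfusion, and the IRSham group was its sham operation; both were sampled in the core only. Between the MI and IR sets, the sampled region and the kind of injury therefore cannot be told apart. Strain, sex and age are not given in the sources used here. Whether the libraries are of separate animals is not stated, and the p-values below then measure only the spread between libraries. The 4 long-read libraries, 1 per group, were not analysed here.

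A ribosome has a small subunit, which reads the mRNA, and a large subunit, which joins amino acids into a chain, and each is built from ribosomal RNA and a set of proteins needed in fixed proportion. The mRNAs of these proteins begin with a run of pyrimidines at the cap, a 5′ terminal oligopyrimidine (TOP) tract, through which mTOR signalling sets their translation. Rpl3 sits close to the site where peptide bonds form. In cardiomyocytes and skeletal muscle fibres its place can be taken by Rpl3l, and the ratio of the pair is known to shift towards Rpl3 when muscle grows or is stressed.

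Levels are in TPM, the abundance of a transcript per unit of length scaled so that each library has the same total, summed over the annotated transcripts of a gene. Differences are on the log2(TPM + 1) scale with their standard error (SE), tested with limma over 14323 genes with a mean of at least 1 TPM, and a gene was called at a Benjamini-Hochberg adjusted p under 0.05. The fit shares 1 estimate of a gene's spread over all 16 libraries, so an SE is not that of the compared groups alone. TPM of a library sum to a common total, so the values of the genes are not independent of each other, and on this scale the median of all genes tested was higher by 0.70 in MI and by 0.57 in IR. TMM scaling, which centres the libraries on the bulk of the genes, put these medians at 0.05 and 0.02, and the main counts over the members are given below on both scales. The libraries also differed in ways other than the members. The 10 cardiomyocyte marker genes summed to 36761 to 41182 TPM in the MISham libraries and to 11752 to 18778 TPM in the MI libraries, and to 37802 to 40458 TPM in IRSham and 13242 to 22460 TPM in IR. The 10 macrophage markers were all higher after either injury, at 2144 to 4524 TPM in the injured libraries against 261 to 889 TPM in the shams. The 8 fibroblast markers summed to 454 to 1274 TPM in the shams and 3705 to 6033 TPM in the injured libraries, and the 6 markers of dividing cells to 4.48 to 30.4 TPM and 137 to 277 TPM. These cell types moved with the members' rise, and their part in it was not tested. The counts of a library summed to 24.3 to 31.8 M, except in MI with 57.2 to 63.1 M.

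Rpl3l fell and Rpl3 rose after both injuries. By group mean Rpl3l was the more abundant form in MISham, and Rpl3 was in IRSham, MI and IR. In the MISham libraries Rpl3l stood at 166, 211, 189 and 182 TPM, and in the MI libraries at 17.1, 20.4, 21.7 and 21.4 TPM. In the IRSham libraries it stood at 201, 161, 167 and 169 TPM, and in the IR libraries at 51.0, 9.35, 63.5 and 14.8 TPM. Every injured library was below every sham library, the MI libraries lay close together, and IR replicates 1 and 3 were well above IR replicates 2 and 4. The log2 difference was -3.15 ± 0.41 (SE, n = 4 and 4) in MI, with an adjusted p of 3.98e-06 in limma, and -2.68 ± 0.41 in IR, with an adjusted p of 2.92e-05. The SE is equal in both because the spread is shared over all 16 libraries. Fitted on only the groups compared, the adjusted p in limma was 5.02e-07 in MI and 0.00106 in IR, with the same differences. With TMM scaling it was -3.90 and -3.31. The authors' read counts, tested with edgeR, gave -3.92 ± 0.49 and -2.91 ± 0.47. Without IR replicates 1 and 3, a check chosen after the values were seen, the IR difference was -3.77.

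Rpl3, the form that nearly all cells use, moved the other way. It stood at 144, 110, 148 and 119 TPM in MISham, at 688, 741, 634 and 658 TPM in MI, at 188, 186, 203 and 187 TPM in IRSham and at 545, 872, 606 and 707 TPM in IR. No injured library overlapped a sham library. The log2 difference was 2.38 ± 0.13 in MI (limma, adjusted p = 2.84e-09) and 1.81 ± 0.13 in IR (adjusted p = 5.53e-08). With TMM scaling it was 1.62 and 1.17, and by counts 1.64 and 1.17, so among the members tested Rpl3 ranked 4 by TPM in both comparisons and 3 by counts in both. In these tissue samples, fewer cells of a type and less RNA per cell cannot be told apart.

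**Figure D1:**
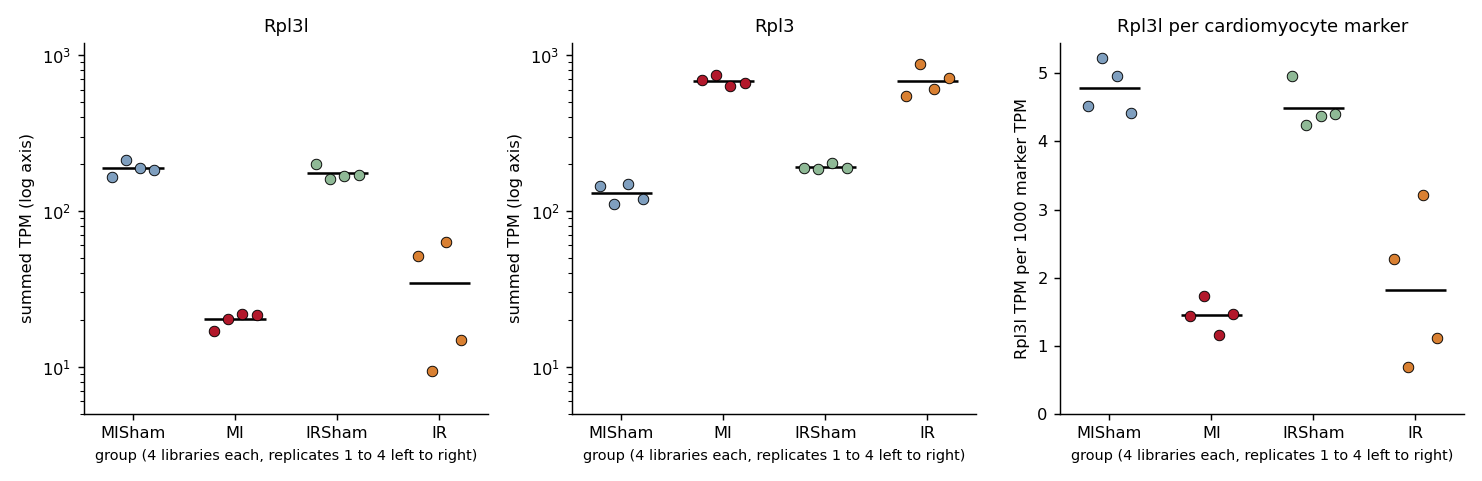
Summed TPM of Rpl3l (left) and Rpl3 (middle) on log axes, and Rpl3l per 1000 TPM of the cardiomyocyte markers (right, linear axis), with 1 point per short-read library and a line at each group mean. Mean Rpl3l was 187 TPM in MISham and 20.2 TPM in MI, and 174 TPM in IRSham and 34.6 TPM in IR, mean Rpl3 was 130, 680, 191 and 682 TPM in the same order, and the injured and sham points do not overlap in any panel.

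As a share of the summed TPM of the pair, Rpl3l held 53.7, 65.6, 56.1 and 60.4% in MISham and 2.42, 2.67, 3.31 and 3.16% in MI. It held 51.6, 46.3, 45.1 and 47.4% in IRSham, and 8.57, 1.06, 9.48 and 2.04% in IR. The muscle form thus held more than its partner in all MISham libraries and somewhat less in 3 of the 4 IRSham libraries, and in every injured library the muscle form held less than 10% of the pair. Counts gave nearly the same mean shares, 59.7% and 3.06% in MISham and MI and 46.8% and 5.17% in IRSham and IR. The summed level of the pair went from 317 ± 15.5 TPM (SD, n = 4) to 700.5 ± 45.6 TPM in MI and from 365 ± 18.2 TPM to 717 ± 121 TPM in IR. These are ratios of 2.21 and 1.96, beside 2.60 and 2.09 for the sum of all members.

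The cardiomyocyte markers moved with this result. Per 1000 TPM of the 10 cardiomyocyte markers, Rpl3l stood at 4.52, 5.22, 4.96 and 4.42 TPM in MISham and at 1.43, 1.73, 1.16 and 1.47 TPM in MI. In IRSham it stood at 4.96, 4.25, 4.37 and 4.41 TPM, and in IR at 2.27, 0.680, 3.21 and 1.11 TPM. The groups did not overlap on this measure either, so Rpl3l was lower relative to the marker sum as well as in itself. The sum leans on the abundant markers, and Actc1, which fell least in proportion, is a large part of it in the injured groups. Its means were 5417 TPM in MISham and 4660 TPM in MI, and 6990 TPM in IRSham and 5069 TPM in IR. The measure was not computed without Actc1. IR replicates 1 and 3, with more Rpl3l, also had the larger marker sums of that group, 22460 and 19743 TPM against 13754 and 13242 TPM. How far the amount of cardiomyocyte RNA accounts for the fall was not tested.

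Eef1a1 and Eef1a2, the ubiquitous and the muscle form of the factor that brings tRNA to the ribosome, are another such pair outside the members. Eef1a2 held 55.1 ± 5.57% (SD, n = 4) of the pair in MISham and 9.70 ± 2.13% in MI, and 48.3 ± 1.91% in IRSham and 11.1 ± 2.88% in IR. Eef1a1 rose by 2.58 ± 0.16 in MI and 2.06 ± 0.16 in IR on the log2 scale. Eef1a2 fell by 0.96 ± 0.11 and 0.87 ± 0.11.

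**Figure D2:**
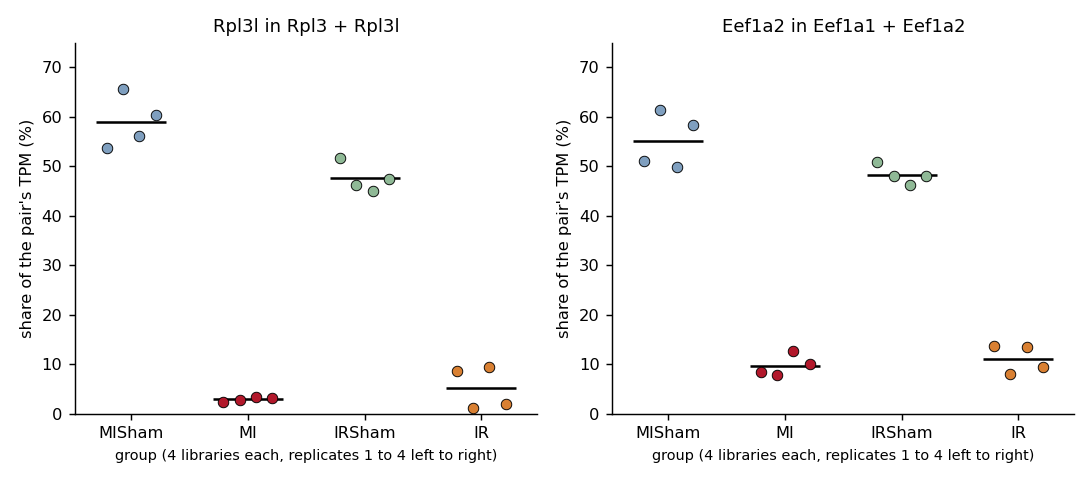
Share of a pair's summed TPM, in percent, held by Rpl3l with Rpl3 (left) and by Eef1a2 with Eef1a1 (right), with 1 point per library and a line at each group mean. The mean shares of Rpl3l and Eef1a2 were 2.89% and 9.70% in MI and 5.29% and 11.1% in IR, and every sham library lies far above the injured ones.

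The upstream sequences of Rpl3l and of 3 members of the usual kind are shown because Rpl3l is the member that fell while they rose in TPM, and because they carry different motifs. They are the 250 bases before the annotated start in RefSeq on GRCm38.p6, which differs from the build of the deposited tables, and the 3 were chosen after the motifs were known. Rpl3l lies on the forward strand at chr17:24727576-24727825, Rpl15 on the reverse strand at chr14:18270987-18271236, Rps10 on the reverse strand at chr17:27635245-27635494 and Rps27 on the reverse strand at chr3:90213649-90213898. Capitals mark every match, on either strand, to the 8 motifs searched.
Rpl3l: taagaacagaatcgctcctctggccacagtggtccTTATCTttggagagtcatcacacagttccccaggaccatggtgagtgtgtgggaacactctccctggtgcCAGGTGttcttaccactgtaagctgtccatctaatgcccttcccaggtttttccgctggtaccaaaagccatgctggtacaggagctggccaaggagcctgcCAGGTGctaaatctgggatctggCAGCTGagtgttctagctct
Rpl15: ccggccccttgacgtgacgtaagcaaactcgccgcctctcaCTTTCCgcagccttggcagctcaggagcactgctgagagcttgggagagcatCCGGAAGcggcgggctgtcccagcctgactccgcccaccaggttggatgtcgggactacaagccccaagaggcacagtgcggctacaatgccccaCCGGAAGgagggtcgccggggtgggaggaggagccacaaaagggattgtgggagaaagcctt
Rps10: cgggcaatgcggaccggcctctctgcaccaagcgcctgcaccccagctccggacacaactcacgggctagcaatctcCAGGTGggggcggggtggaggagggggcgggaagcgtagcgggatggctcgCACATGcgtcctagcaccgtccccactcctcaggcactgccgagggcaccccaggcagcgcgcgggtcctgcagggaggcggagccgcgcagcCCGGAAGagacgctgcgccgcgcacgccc
Rps27: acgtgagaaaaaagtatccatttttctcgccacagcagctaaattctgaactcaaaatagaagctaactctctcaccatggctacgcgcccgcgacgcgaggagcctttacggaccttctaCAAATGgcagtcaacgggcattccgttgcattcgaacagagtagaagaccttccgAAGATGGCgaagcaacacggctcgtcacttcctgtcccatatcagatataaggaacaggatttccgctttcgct
In Rpl3l the capitals are CANNTG (an E-box), found 3 times, and AGATAA, bound by Gata4 and its relatives, found once on the reverse strand as TTATCT. Rpl15 holds CCGGAAG, an ETS site, 2 times and CTTTCC, a pyrimidine run, once. That run lies upstream of the annotated start, so it is not a TOP tract, which begins the mRNA. Rps10 holds CCGGAAG and CANNTG, and Rps27 holds AAGATGGC, a YY1 site, and CANNTG.

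RefSeq gave windows of 300 bases, 250 before to 50 after the start, for 66 of the 86 members, 78 windows in all, beside 32851 windows of all genes. CCGGAAG was present in 34.6% of the members' windows and in 8.86% of all windows, counting both strands. CTTTCC was in 51.3% against 26.6%, and CTCTTTC, which can overlap it, in 26.9% against 8.16%. AAGATGGC was in 10.3% against 2.75%. The other motifs were less frequent in the members: CANNTG in 39 of 78 windows against 72.3% of all, TATAAA in 8.97% against 13.6%, AGATAA in 6.41% against 11.2%, and the frame of a MEF2 site (CTA, any 4 bases, TAG) in 0 of 78 against 3.69%. Rpl3l has 2 windows, and neither holds TATAAA or any of the 4 motifs that were more frequent in the members. Both hold CANNTG, but AGATAA is in only 1 of the 2. A match is only a run of letters, and windows of 1 gene can overlap. Matches to CTTTCC and CTCTTTC were counted anywhere in the window on either strand, so they do not measure TOP tracts.

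In MI, 83 of the 84 members tested rose and 1, Rpl3l, fell. Rpl10l, known from testis, was listed at 0 in all 16 libraries, and Rpl39l reached 1.01 TPM at most; both missed the minimum level. Over all genes tested, 66.3% rose and 12.8% fell, so a high count in itself was common on this scale. The members' median log2 difference was 1.44 (quartiles 1.29 and 1.74) beside 0.70 for all genes (quartiles 0.15 and 1.23), and 83 of 84 members lay above the median of all genes. With TMM scaling 76 rose and 1 fell, beside 35.1% and 31.0% of all genes, with medians of 0.68 and 0.05. By counts in edgeR 79 rose and 1 fell, beside 34.8% and 30.2% of all genes. The MI and MISham libraries did not overlap for any member tested, with MI above for 83 and below for 1, against 63.5% and 11.9% of genes.

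In IR, 80 of 84 members rose and again only Rpl3l fell, beside 62.4% and 12.0% of all genes. The members' median was 1.12 (quartiles 0.94 and 1.28) beside 0.57 for all genes (quartiles 0.11 and 1.01), and 79 members lay above it. With TMM scaling 66 rose and 2, Rpl3l and Rpl36, fell, beside 30.5% and 29.2% of all genes, with medians of 0.48 and 0.02. By counts 74 rose and the same 2 fell, beside 29.5% and 28.2%. The libraries of the 2 groups did not overlap for 77 members with IR above and 1 with IR below, against 54.8% and 9.79% of genes.

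Added up, the members made 28467, 26692, 30684 and 26885 TPM in MISham and 74044, 75894, 69297 and 73346 TPM in MI. They made 32958, 32500, 33504 and 30955 TPM in IRSham and 61332, 77378, 62059 and 70481 TPM in IR. The lowest injured library was thus far above the highest sham library, and within IR the libraries with more cardiomyocyte marker TPM, replicates 1 and 3, had the lower sums. As a share of all TPM the members went from 2.82 ± 0.185% (SD, n = 4) to 7.31 ± 0.278% in MI and from 3.25 ± 0.110% to 6.78 ± 0.761% in IR. As a share of all counts they went from 1.74 ± 0.0901% to 3.42 ± 0.0691% and from 2.04 ± 0.0725% to 3.49 ± 0.205%.

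**Figure D3:**
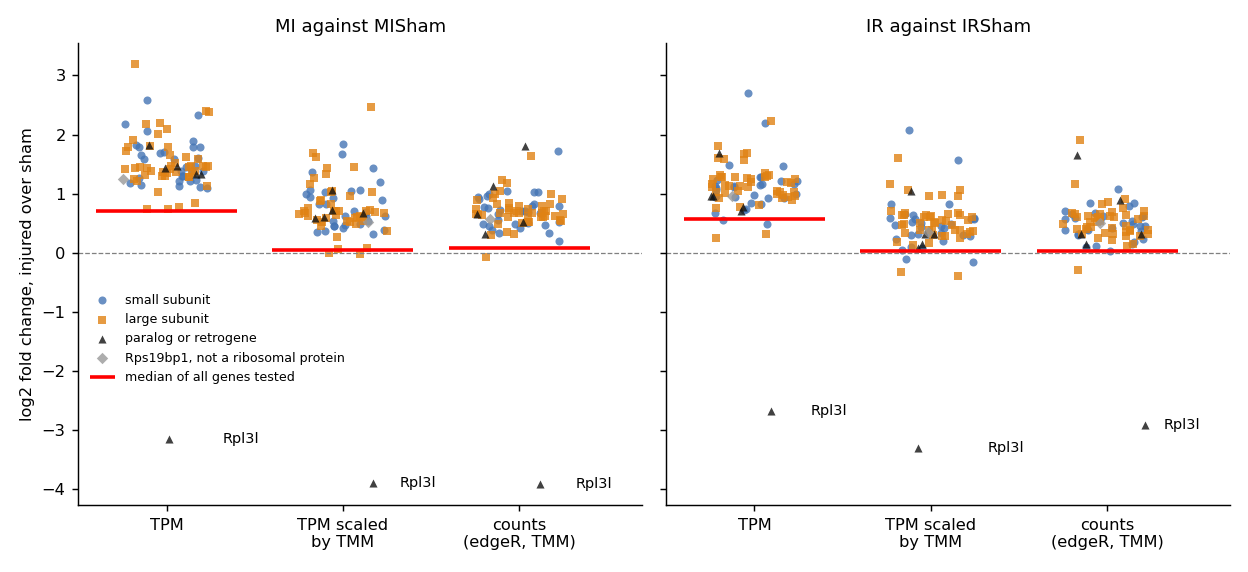
Log2 difference of each of the 84 members tested, injured over sham, for MI (left) and IR (right), by TPM, by TPM scaled with TMM and by counts in edgeR, with 1 point per member spread sideways at random and a red line at the median of all genes tested. Rpl3l stands alone at the bottom, at -3.15 in MI and -2.68 in IR by TPM, and the other members are centred above the red line in each column.

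The small subunit's 31 usual proteins all rose in MI, by 1.09 to 2.58, and 29 of them rose in IR, beside 66.3% and 62.4% of all genes. The proteins' medians were 1.46 and 1.10. With TMM scaling these medians were 0.70 and 0.46. Rpsa, the laminin receptor form of a small subunit protein, is an example with little spread, chosen after its values were seen: it went from 178 to 189 TPM in the MISham libraries to 541 to 628 TPM in MI, a difference of 1.65 ± 0.11. With protein-coding transcripts only, Rpsa was not called in MI. Rps14, of the platform of the small subunit, was among the 3 most abundant members in the shams and rose by 1.26 ± 0.10 in MI and 0.99 ± 0.10 in IR.

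Rps19, the gene most often mutated in Diamond-Blackfan anaemia, stood at 18.7, 35.4, 41.9 and 47.8 TPM in MISham and 430, 154, 279 and 102 TPM in MI, and at 13.8, 20.8, 27.7 and 20.7 TPM in IRSham and 182, 68.0, 77.7 and 88.6 TPM in IR. The injured libraries were all higher but differed several-fold among themselves. Its log2 difference was 2.58 ± 0.41 in MI and 2.2 ± 0.41 in IR, but 0.92 ± 0.07 and 0.61 ± 0.07 by counts.

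Rps12 had the largest rise of any member in IR, 2.71 ± 0.45 (limma, adjusted p = 5.9e-05), from 27.7, 33.9, 43.3 and 36.9 TPM to 137, 408, 88.4 and 603 TPM. All IR libraries were above all IRSham libraries, with IR replicates 2 and 4 the highest. By counts its IR difference was 1.08 ± 0.10. Its rise in MI was 1.80 ± 0.45. Rps16 rose by 2.34 ± 0.21 in MI and by 1.14 ± 0.21 in IR, and by 1.03 and 0.65 by counts. Rps27, the metallopanstimulin gene whose upstream sequence holds AAGATGGC, was at 1032 to 1221 TPM in IRSham and at 2154, 1577, 1449 and 1529 TPM in IR. Every IR library was above IRSham, by 0.55 ± 0.11, but with TMM scaling the difference was -0.10 ± 0.14 and by counts 0.03 ± 0.17. Rps15a was the least abundant member tested, at 1.50 to 6.35 TPM in the shams, and rose by 1.60 ± 0.25 in MI and 0.93 ± 0.25 in IR. Rps19bp1, the binding protein, rose by 1.25 ± 0.16 and 0.96 ± 0.16.

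Rps29 and Rps3 were the small subunit members not called in IR. Rps29, a zinc-binding protein of the small subunit head, was at 510, 249, 254 and 223 TPM in IR and at 183 to 246 TPM in IRSham, so that IR replicate 1 stood far above, replicates 2 and 3 just above and replicate 4 within the sham range (0.48 ± 0.21, limma adjusted p = 0.0508). Rps3, which lies at the mRNA entry channel, was at 21.7, 64.5, 41.2 and 49.8 TPM in IR beside 20.2 to 38.6 TPM in IRSham (0.67 ± 0.34, adjusted p = 0.0892). By counts Rps3 rose in IR by 0.46 ± 0.07 and Rps29 was not called, at 0.16 ± 0.25.

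The large subunit's 46 usual proteins all rose in MI, by 0.75 to 3.20, and 45 of them rose in IR, beside 66.3% and 62.4% of all genes. The proteins' medians were 1.44 and 1.15, and 0.68 and 0.51 with TMM scaling, close to those of the small subunit. Rplp1, of the stalk that recruits elongation factors, was the most abundant member in the shams. It stood at 1497, 1354, 1664 and 1543 TPM in MISham and at 3863, 4451, 3912 and 4183 TPM in MI, and at 1778, 1836, 1888 and 1571 TPM in IRSham and 3580, 5226, 3927 and 4627 TPM in IR. Both injured groups were higher in every library, by 1.44 ± 0.11 and 1.28 ± 0.11.

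Rpl12, at the base of the same stalk, rose from 6.57, 5.85, 12.2 and 5.63 TPM to 39.1, 47.5, 40.9 and 41.0 TPM in MI. The MI libraries were close together and far above the shams, at 2.39 ± 0.17, and the difference in IR was 1.67 ± 0.17. Counts gave 1.18 ± 0.08 and 0.91 ± 0.08. Rpl15, a large subunit protein whose upstream sequence is shown above, rose from 29.1 to 47.4 TPM in MISham to 127 to 165 TPM in MI (2.01 ± 0.16), and in IR by 1.69 ± 0.16, against 0.78 and 0.53 by counts. Rpl13a, whose protein also takes part in translational silencing in inflammation, rose by 2.2 ± 0.28 in MI and 1.61 ± 0.28 in IR, against 0.84 and 0.86 by counts.

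Rpl11, which binds Mdm2 when ribosome assembly fails, had the largest MI difference, 3.20 ± 0.69 (limma, adjusted p = 0.00051). Its libraries were at 14.1, 9.30, 13.4 and 59.2 TPM in MISham and at 342, 189, 168 and 85.9 TPM in MI. MISham replicate 4 lay far above the other shams, and MI replicate 4 was the lowest MI library. Counts gave 0.79 ± 0.07. In IR the libraries overlapped, at 62.4, 12.2, 37.5 and 37.8 TPM in IRSham and 28.0, 284, 80.0 and 154 TPM in IR, and the log2 difference of 1.59 only just passed, with an adjusted p of 0.0469 in limma. It did not pass with TMM scaling (0.96, adjusted p = 0.236), without IRSham replicate 2 (adjusted p = 0.157) or IR replicate 2 (0.168), or in most other TPM settings, whereas counts gave 0.58 (edgeR, adjusted p = 1.48e-06).

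Rpl10a was at 72.5, 52.4, 78.0 and 91.3 TPM in MISham and 146, 189, 185 and 315 TPM in MI, and rose from 91.9, 48.3, 43.4 and 25.5 TPM in IRSham to 433, 210, 164 and 175 TPM in IR. The injured libraries were all higher. The IR difference was 2.24 ± 0.36, against 0.82 ± 0.08 by counts, and the MI difference was 1.46 ± 0.36, not called with TMM scaling (0.70, adjusted p = 0.122). With protein-coding transcripts only it was -0.65 in MI, with an adjusted p of 0.244.

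Rpl36 ranked 2 in abundance among the members in the shams. Its direction in IR changed with the scale, and its rise in MI was not called with TMM scaling or by counts. It stood at 1108, 1239, 1274 and 1143 TPM in MISham and at 2027, 1985, 1993 and 1988 TPM in MI, and at 1390, 1423, 1346 and 1329 TPM in IRSham and 1492, 1877, 1744 and 1745 TPM in IR. Every injured library was higher in TPM, by 0.75 ± 0.08 and 0.32 ± 0.08. With TMM scaling the difference was -0.01 ± 0.08 in MI and -0.33 ± 0.08 in IR (limma, adjusted p = 0.00184), and by counts -0.07 ± 0.08 and -0.30 ± 0.08 (edgeR, adjusted p = 0.0026). The 3 other smallest MI rises, Rpl28 (0.75), Rpl5 (0.77) and Rplp2 (0.84), were not called with TMM scaling but rose by counts, by 0.52, 0.70 and 0.29.

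Rpl9 was the large subunit member not called in IR. It was at 228, 201, 275 and 118 TPM in MISham and 879, 897, 774 and 818 TPM in MI, but at 149, 193, 233 and 386 TPM in IRSham and 530, 265, 224 and 164 TPM in IR. The MI groups were clear of each other (2.09 ± 0.33), and the IR groups overlapped (0.25 ± 0.33, limma adjusted p = 0.512). By counts it rose in both, by 0.50 ± 0.07 and 0.33 ± 0.07.

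Of the paralogs and the retrogene, all 5 tested besides Rpl3l rose in both comparisons by TPM, beside 66.3% of all genes in MI and 62.4% in IR. Rpl22l1, the partner that can stand in for Rpl22, was at 65.6, 60.0, 70.1 and 57.9 TPM in MISham and 210, 256, 215 and 225 TPM in MI, and at 69.9 to 85.8 TPM in IRSham and 210 to 336 TPM in IR. The groups were well apart, with differences of 1.82 ± 0.13 and 1.69 ± 0.13, and it rose by counts too (1.13 and 0.89). Its mean share of the Rpl22 pair went from 15.9% to 20.9% in MI and from 15.9% to 23.2% in IR, with no overlap of libraries. By group mean, most of its TPM was the non-coding transcript Rpl22l1-209, at 57.8 TPM in MISham, 152 in MI, 73.9 in IRSham and 239 in IR. The protein-coding Rpl22l1-206 was at 3.56, 61.4, 3.01 and 14.4 TPM in the same order. The share of the pair is therefore not one of coding mRNA. Rps27l, a p53-induced paralog of Rps27, rose by 1.43 ± 0.08 and 0.96 ± 0.08, and its mean share of the pair was 13.4% in both sham groups, 16.4% in MI and 17.3% in IR, where replicate 1, at 12.7%, lay within the IRSham range of 12.6 to 14.3%. Rpl7l1, which acts in ribosome assembly, rose by 1.33 ± 0.11 in MI and 0.71 ± 0.11 in IR, but in IR it was not called with TMM scaling (0.08, adjusted p = 0.455) or by counts (0.15, adjusted p = 0.0675). Its mean share of the Rpl7 pair was 8.0% in MISham and 7.26% in MI, with overlapping libraries, and 8.55% and 5.92% in IRSham and IR. Rpl36al held 67.0% of its pair in both sham groups, 59.9% in MI and 62.0% in IR. The retrogene Rps27rt was called by TPM alone, and neither with TMM scaling (0.59 and 0.15) nor by counts (0.32 and 0.32).

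Transcript levels and gene counts did not rank the members alike. Thresholds set after the values were seen, in TPM and in CPM (counts scaled to the TMM-adjusted library total), singled out 14 members. The thresholds were a sham mean of at most 20 TPM with at least 50 CPM, or at least 100 TPM with at most 10 CPM. The first kind held 10: Rpl12, Rpl27, Rpl27a, Rpl5, Rpl7l1, Rps13, Rps15a, Rps16, Rps23 and Rps6. Their sham means ran from 2.68 to 19.4 TPM, with 60.6 to 345 CPM. Rps6, the substrate of the S6 kinases, was among them at 18.4 TPM in MISham. The second kind held 4, Rpl13a, Rpl24, Rpl36al and Rps10, at 148 to 674 TPM with 0.175 to 1.72 CPM. Without these 14, 69 of 70 members rose and 1 fell in MI with a median of 1.43, beside 66.3% and 12.8% of all genes. In IR 66 rose and 1 fell with a median of 1.12, beside 62.4% and 12.0%. With TMM scaling 63 rose and 1 fell in MI, beside 35.1% and 31.0% of all genes. In IR 57 then rose and 2 fell, beside 30.5% and 29.2%. The 301 genes named as ribosomal protein pseudogenes, whose sequences resemble the members, summed to 4815 ± 317 TPM (SD, n = 4) in MISham and 10192 ± 1643 TPM in MI, and to 5764 ± 439 TPM and 12041 ± 2180 TPM in IRSham and IR. Their part in the members' values was not tested, and the level of a single member is uncertain where the 2 measures differ this far.

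**Figure D4:**
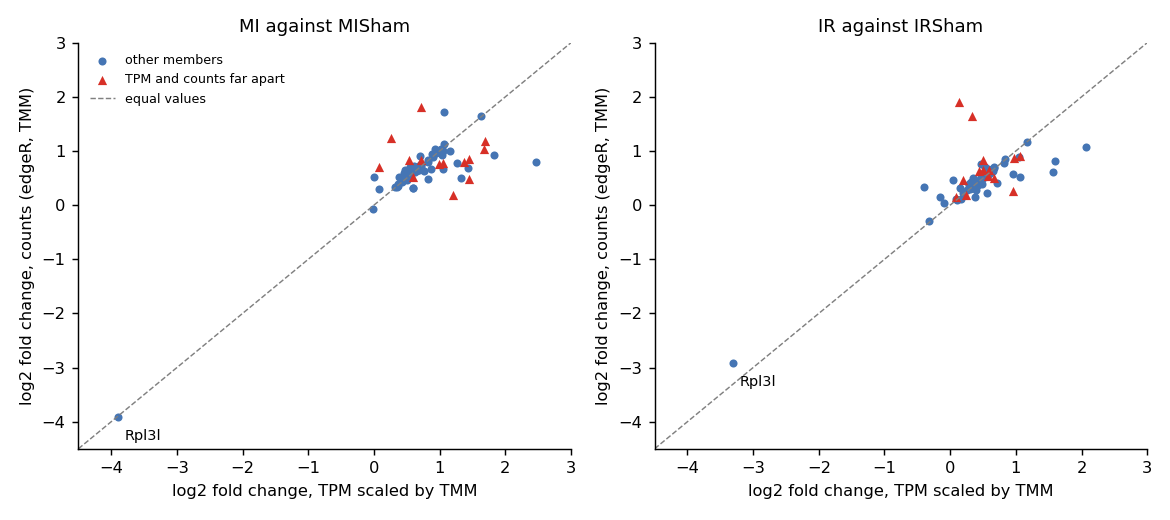
Log2 difference of each member, injured over sham, by TMM-scaled TPM (x axis) against counts in edgeR (y axis), for MI (left) and IR (right), with a dashed line at equal values and red triangles for the 14 members whose levels in TPM and counts were far apart. Rpl3l lies near the line at the lower left, at -3.90 and -3.92 in MI and at -3.31 and -2.91 in IR, and points lie off the line on both sides, among the 14 members and among the others.

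The difference of the responses, MI against its sham less IR against its sham, was called for 0 of 84 members in limma, beside 0.0908% of all genes called higher and 0.0279% lower. The members' median was 0.33 beside 0.12 for all genes, and 41 members had an unadjusted p under 0.05 in limma. The share of all genes under that cut was not computed, so the 41 cannot be set against a background. The lowest adjusted p was 0.0938, for Rps28, a small protein near the mRNA exit, with a difference of 0.73 ± 0.16. Rps28 was at 281, 278, 314 and 216 TPM in MISham and 914, 809, 830 and 934 TPM in MI, and at 307, 317, 304 and 327 TPM in IRSham and 745, 622, 562 and 533 TPM in IR. It was higher in every injured library, and IR replicate 1 was the highest of its group. TMM scaling called 0 members as well (0.0907% of all genes higher and 0.0349% lower), as did edgeR on counts (0.117% and 0.076%). DESeq2 called 3 higher (Rpl14, Rpl35a and Rps16), beside 1.16% of all genes higher and 1.39% lower. Without IR replicate 1 the count was 3 (Rps27, Rps28 and Rps29), and without MISham replicate 3 it was also 3 (Rpl12, Rps16 and Rps23). The share of all genes called in these fits was not computed. For Rpl3l the difference of the responses was -0.47 ± 0.58, with an adjusted p of 0.726.

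Between the sham groups, 0 members were called by TPM in limma, beside 0.0419% of all genes called higher in MISham and 0.105% lower. An unadjusted p under 0.05 was found for 31 members, and the share of all genes under that cut was not computed here either. The members' median was -0.20 beside -0.10 for all genes. Rpl3 had the lowest adjusted p, 0.148, at -0.56 ± 0.13, and its MISham and IRSham libraries did not overlap. By counts in edgeR 1 member was higher and 17 were lower in MISham, beside 2.34% and 0.866% of all genes, and these included Rpl3 (-0.53, adjusted p = 0.00223). The largest of the 17 was that of Rpl21, chosen after its values were seen, at 81.6 CPM in MISham and 262 in IRSham (-1.68). Its MI and IR means kept the same split, at 125 and 330 CPM, while in TPM it stood at 188 in MISham, 234 in IRSham, 492 in MI and 469 in IR. Rps27rt, the member higher in MISham by counts, had 12.2 CPM there and 1.84 in IRSham, but 29.5 and 22.1 TPM. Rpl3 differed between the sets by about as much in TPM as in counts, while Rpl21 and Rps27rt differed by less in TPM (-0.31 and 0.38, against -1.68 and 2.73 by counts). The cause was not tested.

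Transcript use within a gene was compared as each transcript's share of the gene's TPM, for 122 transcripts of 46 members. In MI, 16 transcripts of 10 members changed by at least 10 percentage points with an adjusted p under 0.05 in limma, beside 5.66% of 25606 transcripts tested. The clearest was Rpl29, a small basic protein of the large subunit, whose transcript Rpl29-203 held 9.89, 15.3, 10.3 and 9.68% in MISham and 61.5, 31.1, 35.6 and 39.5% in MI. The groups were far apart and MI replicate 1 was the highest. Its share rose by 30.65 points ± 5.20 (SE, adjusted p = 0.00264) and that of Rpl29-202 fell by 33.18 points. Only these 2 of the 16 were called whichever MI or MISham library was left out. In IR and IRSham, Rpl29-203 ranged from 8.81 to 22.5%.

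In Rpl24 the protein-coding Rpl24-201 held 66.4, 51.1, 60.7 and 43.7% in MISham and 96.1, 88.9, 92.9 and 92.6% in MI, a rise of 37.12 points ± 9.45 (adjusted p = 0.0282), while the non-coding Rpl24-204 fell by 37.04 points. In IR it was at 77.5, 39.5, 45.6 and 32.1%, overlapping IRSham. In Rpl22l1 the protein-coding Rpl22l1-206 held 2.63, 4.32, 14.1 and 0% in MISham and 49.6, 19.8, 19.1 and 22.2% in MI, with MI replicate 1 again the highest. Its share rose by 22.40 points (adjusted p = 0.02) and the non-coding Rpl22l1-209 fell by 25.35 points. Other members with a called share in MI included Rpl15, Rpl35, Rpl35a, Rpl7, Rps10 and Rps16. The 4 deepest libraries are the MI group, and the share of all TPM held by long-read transcripts, for which no gene is given, was 30.4 ± 0.382% in MISham and 24.5 ± 0.870% in MI, and 30.2 ± 0.822% in IRSham and 24.0 ± 1.94% in IR; their part in these shares was not tested.

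In IR, 1 transcript was called, beside 3.51% of all. Rps19-205, annotated as a target of nonsense-mediated decay, held 16.2, 19.8, 21.6 and 14.0% of Rps19 in IRSham and 4.72, 5.41, 4.20 and 7.94% in IR. The groups did not overlap, and the share fell by 12.31 points ± 2.19 (limma, adjusted p = 0.00618). It was at 0.780 to 10.1% in MISham, so the sham groups themselves stood at different levels, though no member's share was called between them or in the difference of the responses. For Rpl3l, the main transcript Rpl3l-202 held 80.8 to 94.0% in MI, beside 84.2 to 93.3% in MISham, with no call in either comparison.

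**Figure D5:**
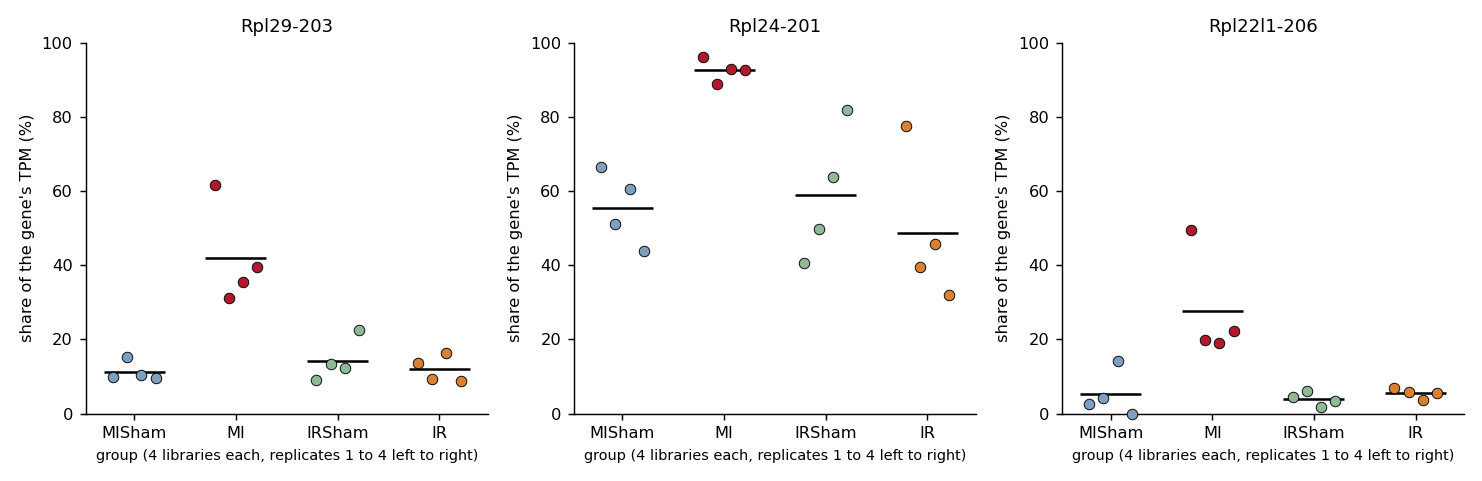
Share of the gene's TPM, in percent, held by Rpl29-203, Rpl24-201 and Rpl22l1-206 in each library, with 1 point per library and a line at each group mean. Rpl29-203 lies at 9.68 to 15.3% in MISham and at 31.1 to 61.5% in MI, the MI and MISham points do not overlap in any of the 3 panels, and the IR and IRSham points overlap in all of them.

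The symbols of some ribosomal proteins, Rack1 and Fau among them, fall outside the naming rule. Rack1, the scaffold on the small subunit head, rose by 1.60 ± 0.10 in MI and 1.36 ± 0.10 in IR, and Fau, which encodes a small subunit protein fused to a ubiquitin-like domain, by 1.12 ± 0.19 and 1.01 ± 0.19. With TMM scaling Rack1 still rose, by 0.84 and 0.71, and Fau was not called, at 0.37 and 0.37.

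Of 13 translation factors whose mRNAs carry a TOP tract, all 13 rose in MI and in IR by TPM, beside 66.3% and 62.4% of all genes. Their medians were 1.08 and 0.94 beside 0.70 and 0.57 for all genes. With TMM scaling 7 and 8 rose and 0 fell, beside 35.1% and 30.5% of all genes higher and 31.0% and 29.2% lower. By counts 5 rose and 1 fell in MI, beside 34.8% and 30.2% of all genes. In IR 6 rose and 2 fell by counts, beside 29.5% and 28.2%. The medians by counts were 0.12 in MI and 0.12 in IR, beside 0.08 and 0.03 for all genes. Eef1a1 (2.58), the poly(A)-binding protein Pabpc1 (2.49) and Eef1b2 (1.67) rose most in MI. After TMM scaling 76 of the 84 members were still higher in MI, beside 7 of these 13 factors. Whether each member carries the tract was not examined, and the difference between the 2 lists was not tested.

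Of 30 genes of ribosome assembly and ribosomal RNA processing, 28 rose in MI and 23 in IR, beside 66.3% and 62.4% of all genes, with medians of 1.29 and 0.93 beside 0.70 and 0.57. With TMM scaling 20 rose and 2 fell in MI, and 17 rose and 4 fell in IR, beside 35.1% and 30.5% of all genes higher and 31.0% and 29.2% lower. The largest rises in MI were those of the snoRNP protein Nhp2 (2.24), the nucleolar chaperone Npm1 (2.07) and Nop58 (1.99). Of 20 regulators of translation, 17 rose and 1 fell in MI and 16 rose and 1 fell in IR, beside the 66.3% and 62.4% of all genes that rose, with medians of 0.72 in both beside 0.70 and 0.57 for all genes. The largest rise in MI among them was that of Myc (2.69, and 1.81 in IR), a transcription factor that drives ribosome production. The regulator that fell was Eif4e, which binds the mRNA cap, by 0.40 ± 0.13 (adjusted p = 0.00973) in MI and by 0.62 ± 0.13 (adjusted p = 0.000455) in IR. With TMM scaling the regulators split evenly, 8 higher and 7 lower in MI and 7 and 6 in IR. Over all genes the shares were then 35.1% and 31.0% in MI and 30.5% and 29.2% in IR.

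In the RefSeq gene order Rpl3l stands near another member, Rps2, with Ndufb10 between them. Rps2, chosen after its values were seen, was at 797, 820, 878 and 688 TPM in MISham and 1749, 1891, 1645 and 1675 TPM in MI. It rose by 1.13 ± 0.11 in MI and 0.74 ± 0.11 in IR, where TMM scaling gave 0.10 with no call, so the neighbouring members moved in opposite directions in MI on both scales.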

How the data were processed

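Poly(A) RNA of mouse heart was read in 16 short-read libraries. The authors deposited whole-number read counts for 63318 genes and TPM for 163740 transcripts; per the submitters' processing notes, the tools included kallisto 0.50.1, featureCounts 2.0.1, SAMtools 1.7 and HISAT2 2.2.1, on GRCm39. The role of each tool, the annotation release and the strand setting are not given in the sources used here. The strand setting matters where genes overlap, and reads of near-identical pseudogenes can be assigned differently in the counts and in the TPM. TPM carries no depth, so no counting interval was computed.

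Transcripts were matched by Ensembl ID to GENCODE M21 (138330 of 163740) and their TPM summed per gene; 23070 long-read transcripts carry no gene. The authors also deposited columns of estimated counts and effective lengths that name no sample, 2 in all, and these were not used. Symbols came from GENCODE M21, which is on another build, so no coordinates were taken from it. Upstream sequences came from RefSeq on GRCm38.p6.

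Genes with a mean of at least 1 TPM were tested in R 4.3.3 with limma 3.58.1 on log2(TPM + 1), with 1 mean per group over all 16 libraries, for 4 contrasts, and p-values were adjusted over all genes tested. The log2(TPM + 1) scale understates changes of low genes. TMM-scaled TPM, and counts in edgeR 4.0.16 (quasi-likelihood test) and DESeq2 1.42.0, were alternatives, as were other pseudocounts, filters, transcript sets and left-out libraries. Transcript shares were tested with limma for genes of at least 5 TPM and transcripts of at least 5%. The scripts were tested on simulated data. Named genes were Rpl3l, Rpl3 and the paralog pairs, the 6 largest rises and falls called per comparison, the 3 most and 3 least abundant members, members with a called transcript share, and the 3 largest called rises and falls of each list; other genes are said to be chosen after their values were seen or are the exceptions to a count. Some genes that these rules name are not reported here. The members, lists and rules were chosen with earlier results of these data known.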

Additional observations from a re-analysis of the deposited data

Results flagged for a closer look

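In 148 sets of 4 libraries (the 33 named members and 4 derived measures, the members' sum, the shares of Rpl3l and Eef1a2 in their pairs and Rpl3l per marker TPM, in each of the 4 groups), 1 library lay far from the other 3 by Dixon's test in 10, and chance alone flags about 1 in 20. In MISham, replicate 3 was high for Rpl10, at 111 TPM beside 62.8 to 69.2 TPM, and for Rpl12, at 12.2 TPM beside 5.63 to 6.57 TPM, and replicate 4 was high for Rpl11, at 59.2 TPM beside 9.30 to 14.1 TPM. In MI, replicate 2 was low for Rpl13a, at 421 TPM beside 843 to 863 TPM. In IRSham, replicate 3 was high for Rpl3, at 203 TPM beside 186 to 188 TPM, replicate 1 was high for Rpl7l1, at 23.3 TPM beside 20.2 to 20.6 TPM, and low for Rps15a, at 1.7 TPM beside 2.36 to 2.49 TPM, and replicate 4 was low for Rps4x, at 344 TPM beside 376 to 379 TPM. In IR, replicate 1 was low for Rpl12, at 28.5 TPM beside 36.2 to 37.7 TPM, and high for Rpl13a, at 584 TPM beside 336 to 373 TPM. Rpl3l had no such library in any group, and its IR libraries lie in 2 pairs.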

How the results depend on the processing

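In all 30 settings tried, 72 members were called higher and Rpl3l lower in MI, and 64 higher and Rpl3l lower in IR. The matching count over all genes was not made. In the main setting alone, 66.3% of all genes were called higher in MI and 62.4% in IR. Leaving out 1 library at a time, Rpl3l ranged from -3.21 to -3.08 in MI and from -3.10 to -2.22 in IR, and Rpl3 from 2.31 to 2.45 and from 1.68 to 1.91. In IR, 2 members (Rpl3l and Rpl36) were lower with TMM-scaled TPM, with edgeR (TMM, DESeq2 size factors, or no filter) and with DESeq2. Rpl36 changed sign in each of these settings: in MI to -0.015, -0.074, -0.13, -0.055 and -0.12, and in IR to -0.33, -0.30, -0.30, -0.28 and -0.30. In MI it was not called with TMM-scaled TPM, with edgeR using TMM or DESeq2 size factors, or with DESeq2. Rps27 in IR changed sign to -0.10 with TMM-scaled TPM, and Rpl10a in MI to -0.65 with protein-coding transcripts only, and neither was called there. The causes were not tested.

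For the difference of the responses, 3 members were called higher and 1 lower with protein-coding transcripts only, beside 27 and 7 of 12190 genes. DESeq2 called 3 higher, beside 197 of 17031 genes. Leaving out 1 library gave 0 to 3 higher, the 3 coming without MISham replicate 3 or without IR replicate 1. Without IR replicates 1 and 3, 3 were higher and 1 was lower, and without MISham replicates 1 and 3, 13 were higher. Both settings were chosen after seeing the data. The share of all genes called was not computed for fits with libraries left out. Between the shams, counts called 1 member higher with each tool, and 17 lower in edgeR with TMM, 16 with DESeq2 size factors, 17 with no filter and 22 in DESeq2. Of 19741 genes, edgeR called 461 higher and 171 lower with TMM, and 478 and 143 with DESeq2 size factors. DESeq2 called 619 and 286 of 26275 genes. By TPM, 0 to 1 was lower when 1 library was left out (Rpl12 without MISham replicate 3), 1 without IR replicates 1 and 3, and 2 without MISham replicates 1 and 3.

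Called transcript shares ranged from 5 to 16 in MI when 1 library was left out, with 5 without MI replicate 1, 6 without MISham replicate 4, 8 without MI replicate 4 and 9 without MISham replicate 1, MISham replicate 2 or MI replicate 2. In IR they ranged from 1 to 6, with 6 without IR replicate 1 and 2 without IRSham replicate 2, in the difference of the responses from 0 to 1 (without IR replicate 1), and between the shams from 0 to 1 (without MISham replicate 4).

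The replicate numbers did not pair the libraries, with correlations of -0.23 to 0.19 between same-numbered deviations. A replicate block left 83 members higher and 1 lower in MI and 80 and 1 in IR, not all of them the same members, since Rpl11 in IR was no longer called (adjusted p = 0.0705), and 10 called shares in MI. TPM gives no depth, and the precision of members under about 20 TPM is unknown.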
